A study of Mus musculus with 6 samples.

Results

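The genes described here are 33 members of the p53 and growth arrest programme: p53 itself and its 2 inhibitors, the inhibitors of cyclin-dependent kinases (CDKs), p53 target genes and the GADD45 stress genes. They were chosen by gene symbol, with 1 probe set per gene, and 29 of the 33 were measured among 22180 named genes. The 4 others, Trp53, Gdf15, Bax and Gadd45a, have no probe set annotated to that symbol alone (the Gadd45a probe set also carries another gene), so they have no values here. The study grew myoepithelial cells, the contractile cells around the secretory acini, from the exorbital lacrimal glands of female mice. It compared TSP1 null mice (3 arrays) with wild-type C57BL/6J mice (3 arrays) as a model of dry eye disease against health, and all cultures were untreated and kept for 2 to 3 weeks. TSP1 is thrombospondin-1, encoded by Thbs1, and the labels state neither the null allele and its background strain nor the age of the mice. Signals are log2 values of Affymetrix Mouse Gene 2.0 ST arrays, so a difference of 1 is a 2-fold difference. The labels call the arrays biological replicates without naming separate animals or cultures, so a p-value here measures only how these 6 arrays spread, which may be technical.

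The transcription factor p53 is held low by Mdm2 and Mdm4 and is released when DNA is damaged or cells are stressed. It then switches on genes that stop the cell cycle, repair DNA or start cell death, and Mdm2 is itself a target, which closes a feedback loop. The CDK inhibitors are the brakes that carry out the arrest: Cdkn1a (p21) is the best known p53 target, whereas Cdkn2a and Cdkn2b rise with passage in cultured cells and act through the retinoblastoma protein. Several members, among them Btg2, Plk2 and Gadd45b, also respond to growth factors and stress signals without p53.

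Promoter sequences are shown for 4 members because they hold a match to a searched motif and their genes are described in detail: Cdkn1a and Ccng1, p53 targets whose signals hardly differed between the groups, and Btg2 and Plk2, whose mean signals were higher in the TSP1 null group. The windows of Gadd45b and Ccng2, also higher, held none of the motifs searched. Each line is the 250 bases before an annotated start, 5′ to 3′, from RefSeq on GRCm38.p6, with motif matches in capitals. For Cdkn1a (chr17:29090729-29090978, plus strand, the first of its 2 listed starts) and Ccng1 (chr11:40755287-40755536, minus strand) the capitals mark a p53 response element. For Btg2 (chr1:134079156-134079405, minus strand) and Plk2 (chr13:110394794-110395043, plus strand) they mark the cAMP response element TGACGTCA.
Cdkn1a: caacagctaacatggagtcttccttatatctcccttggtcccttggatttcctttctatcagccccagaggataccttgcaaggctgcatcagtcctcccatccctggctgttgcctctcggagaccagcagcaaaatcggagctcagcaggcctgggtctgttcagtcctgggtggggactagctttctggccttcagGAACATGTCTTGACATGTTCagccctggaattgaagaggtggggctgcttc
Ccng1: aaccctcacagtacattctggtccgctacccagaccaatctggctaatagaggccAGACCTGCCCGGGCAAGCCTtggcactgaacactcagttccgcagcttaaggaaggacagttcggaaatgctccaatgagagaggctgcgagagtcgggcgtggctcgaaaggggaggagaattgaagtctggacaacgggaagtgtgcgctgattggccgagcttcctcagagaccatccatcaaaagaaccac
Btg2: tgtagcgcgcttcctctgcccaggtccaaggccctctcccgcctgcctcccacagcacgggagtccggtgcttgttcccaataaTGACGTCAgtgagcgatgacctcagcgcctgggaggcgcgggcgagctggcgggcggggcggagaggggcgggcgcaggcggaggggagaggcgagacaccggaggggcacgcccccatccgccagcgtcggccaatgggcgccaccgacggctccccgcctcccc
Plk2: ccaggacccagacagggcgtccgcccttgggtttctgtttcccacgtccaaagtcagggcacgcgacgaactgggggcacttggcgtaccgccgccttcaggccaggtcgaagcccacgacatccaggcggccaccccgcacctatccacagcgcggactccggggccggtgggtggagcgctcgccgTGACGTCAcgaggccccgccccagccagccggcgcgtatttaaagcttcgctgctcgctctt

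In Cdkn1a the element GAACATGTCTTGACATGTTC lay at -51 to -32 from the start, and in Ccng1 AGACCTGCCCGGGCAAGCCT lay at -195 to -176, each with 1 mismatch to the 20-base consensus. Bax, which was not measured, had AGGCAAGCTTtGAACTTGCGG at -201 to -181, with 2 mismatches and 1 spacer base in lower case. The element was searched on both strands as 2 half-sites of 10 bases with at most 2 mismatches outside their C and G cores and a spacer of at most 1 base. RefSeq windows of 300 bases (250 before and 50 after a start) were found for 26 of the 33 members, 36 windows in all, and 3 of the 36 (8.33%) held the element against 0.682% of all 32841 windows. TGACGTCA, which reads the same on both strands, was in 3 member windows (8.33%; Btg2, Plk2 and Cdkn2b) against 1.79% of all windows. The FOXO site GTAAACA, on either strand, was in 4 member windows (11.1%; Bbc3, Eda2r, Mdm2 and Sesn1) against 3.65% of all windows, and the CArG box was in 0 against 1.63%. None of these motifs contains another. The position in Cdkn1a is counted from its first listed start. The window of its second listed start (chr17:29093519-29093818) lies downstream and held none of these motifs, so the element is farther upstream of that start. The motifs were chosen after the values were seen, and many members were listed as p53 targets, so these shares test nothing. A match describes the letters in the window and does not show binding.

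Between the groups the p53 programme as a whole had differences centred near 0. The median difference over the 29 measured members, TSP1 null minus wild type, was 0.03, against 0.022 over all genes, and their mean difference was 0.12. The median ran from 0.00 without the second null array to 0.15 without the second wild-type array, the extremes when 1 array was dropped. Of the 29, 19 (65.5%) were positive, where 55.1% of all genes were. With limma, 0 of the 29 passed an adjusted p of 0.05, and 0% of all genes did. At an unadjusted p under 0.05 there were 5 of 29 (17.2%) against 10.6% of all genes. They were Gadd45b, Btg2, Plk2 and Ccng2, higher in the null group (4 of 29, 13.8%, against 6.28%), and Sesn1, lower (1 of 29, 3.45%, against 4.27%). The 2 groups did not overlap for 3 members (10.3%), against 15.8% of all genes. They were Gadd45b and Phlda3 above (2 of 29, 6.90%, against 10.1%) and Sesn1 below (1 of 29, 3.45%, against 5.75%). So the share of members that stood apart was above the background by one count and below it by the other. The arrays read a mixed culture, in which fewer cells of a type and less RNA per cell cannot be told apart.

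**Figure D1:**
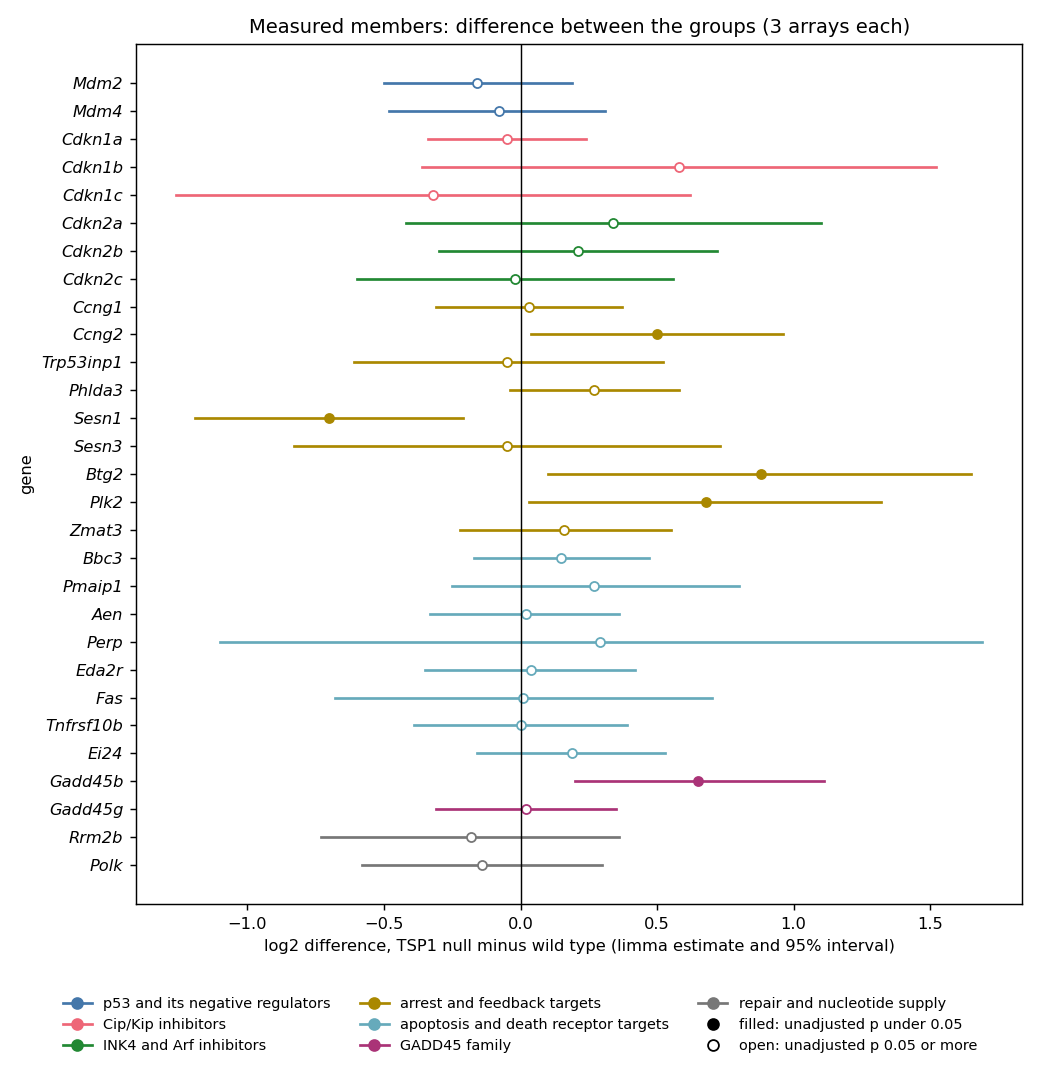
Each row is 1 of the 29 measured members, and the x axis is the log2 difference, TSP1 null minus wild type, with limma's estimate as a point and its 95% interval as a line, coloured by role. The 5 filled points (Ccng2, Sesn1, Btg2, Plk2 and Gadd45b) have an unadjusted p under 0.05, and the intervals of the other 24 members include 0.

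The checks of the samples bear on all of these values. Thbs1, the targeted gene, had a difference of -0.68 (SE 0.13) and was read at 12.73 to 13.03 on the null arrays, so it is a weak check of the labels. Acta2, the actin of myoepithelial and smooth muscle cells, was read at 13.85 to 14.01 on the 6 arrays, while the basal keratin Krt14 was read at 4.93 to 6.35, near the array medians of 5.25 to 5.32. Krt14 was higher in the null group without overlap (0.89, SE 0.20, limma unadjusted p = 0.00241, adjusted p = 0.29). Of 6 measured basal epithelial markers 2, Krt14 and Krt17, were higher at an unadjusted p under 0.05 (33.3%, against 6.28% of all genes). In that list 5 differences were positive and 1 negative, Itga6 at -0.49 (SE 0.37). The fibroblast gene Col1a1 was read at 12.56 to 13.53, also higher in the null group without overlap (0.54, SE 0.15, limma adjusted p = 0.325). Of 9 fibroblast markers 3, Col1a1, Col1a2 and Col3a1, were higher at an unadjusted p under 0.05 (33.3%, against 6.28% of all genes). The list was mixed, with 5 differences positive and 4 negative (Lum -1.05, Dcn -0.55, Dpt -0.40 and Thy1 -0.15) and a mean of 0.07. The macrophage gene Cd68 was read at 9.66 to 12.99, lowest on the third null array. The 20 macrophage markers averaged 7.59 to 10.18 on the null arrays and 10.01 to 10.85 on the wild-type arrays. All 20 had a negative difference, and 16 were lower at an unadjusted p under 0.05 (80%, against 4.27% of all genes). The part of these cell types in the member values was not tested.

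Of the regulators of p53, Mdm2, the ubiquitin ligase that degrades p53, had signals of 10.92, 11.40 and 11.17 on the null arrays and 11.29, 11.46 and 11.22 on the wild-type arrays. The groups overlapped, and the second array was the highest in each. The difference was -0.16 (SE 0.15, 95% interval -0.50 to 0.19, limma adjusted p = 0.761). Mdm4, the relative of Mdm2 that masks the p53 activation domain, had a difference of -0.08 (95% interval -0.48 to 0.31), and unlike Mdm2 it was lowest on the second array of each group.

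The CDK inhibitors of the Cip/Kip family bind cyclin and CDK together. Cdkn1a measured 12.85, 12.96 and 12.88 on the null arrays and 12.81, 13.15 and 12.90 on the wild-type arrays. Its signals lay within 0.34 of each other on all 6 arrays, and the difference of -0.05 (SE 0.12) had a 95% interval of -0.34 to 0.24, which leaves out a change of 1.5-fold in either direction (limma adjusted p = 0.913). Cdkn1b (p27), which holds resting cells out of the cycle, was read at 8.85, 8.72 and 9.11 in the null group and at 9.33, 7.54 and 8.06 in the wild-type group. The wild-type arrays were spread widely, with the first above all null arrays and the other 2 below them. The difference of 0.58 (SE 0.40, adjusted p = 0.656) therefore had an interval of -0.36 to 1.52, and it ran from 0.20 without the second wild-type array to 1.09 without the first. Cdkn1c (p57), an imprinted inhibitor, had a difference of -0.32 (SE 0.40, interval -1.26 to 0.62). Its second array was the lowest of the null group at 5.94 and the highest of the wild-type group at 7.77, and the difference was 0.11 without that wild-type array.

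The INK4 inhibitors block CDK4 and CDK6, and Cdkn2a also encodes Arf, which frees p53 from Mdm2. The probe set does not tell the Cdkn2a products apart here. Its signals were 9.40, 9.53 and 8.93 in the null group and 8.37, 9.69 and 8.79 in the wild-type group, a difference of 0.34 (SE 0.33, interval -0.42 to 1.10, limma adjusted p = 0.764). The groups overlapped because the second wild-type array was the highest of all 6, and the difference ran from 0.05 without the first wild-type array to 0.71 without the second. Its neighbour Cdkn2b (p15), a TGF-beta target in epithelial cells, had a difference of 0.21 (interval -0.30 to 0.72) and was likewise highest on the second array of each group. Cdkn2c (p18) had -0.02 (interval -0.60 to 0.56), or 0.02 after centring each array on its median.

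Among the arrest and feedback targets, 3 of 9 measured members were higher and 1 lower in the null group at an unadjusted p under 0.05, against 6.28% and 4.27% of all genes. Btg2, an antiproliferative factor that recruits the deadenylase complex to mRNA, had signals of 8.82, 8.28 and 8.85 on the null arrays and 7.29, 8.57 and 7.47 on the wild-type arrays. The groups overlapped only through the second wild-type array, which exceeded the second null array. The difference was 0.88 (SE 0.33, 1.84-fold, limma unadjusted p = 0.0310, adjusted p = 0.429), the largest of any member in the fit on all 6 arrays.

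Plk2, a polo-like kinase of the G1 and S phases, was read at 11.55, 10.68 and 11.62 in the null group and at 10.22, 10.85 and 10.75 in the wild-type group. The second null array lay among the wild-type arrays, and the other 2 null arrays lay above them. Its difference was 0.68 (SE 0.28, 1.60-fold, limma unadjusted p = 0.0420, adjusted p = 0.458). The second array was the lowest of the null group and the highest of the wild-type group for Btg2, Plk2 and Cdkn1c, whereas Cdkn2b, the third member with TGACGTCA, was highest on the second array of both groups.

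Ccng2, an atypical cyclin that slows the cycle and is a FOXO target, had signals of 8.62, 8.27 and 8.87 in the null group and 8.39, 7.84 and 8.02 in the wild-type group. Only the second null array fell below a wild-type array. The difference was 0.50 (SE 0.20, 1.41-fold, limma unadjusted p = 0.0367, adjusted p = 0.444). Its relative Ccng1, a p53 target that acts back on Mdm2 and whose promoter carries the element shown above, had 0.03 (SE 0.15, interval -0.31 to 0.37).

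Sesn1, a sestrin that restrains mTORC1 and is induced by p53, was the only member lower in the null group at an unadjusted p under 0.05. Its signals were 8.15, 8.50 and 7.62 in the null group and 8.73, 8.83 and 8.80 in the wild-type group. Each null array lay below each wild-type array. The difference was -0.70 (SE 0.21, 1.62-fold lower, limma unadjusted p = 0.0116, adjusted p = 0.356). The third null array was the lowest for Sesn1, and without it the difference was -0.46 (limma unadjusted p = 0.02). Macrophage markers were also lowest on that array, and their part in the Sesn1 values was not tested. The other sestrins had other values: Sesn3, a member, had -0.05 (SE 0.34), and Sesn2, which is not a member and is known as a target of the ATF4 stress pathway as well as p53, had 0.81 (SE 0.13, adjusted p = 0.194) with all null arrays (9.01 to 9.39) above all wild-type arrays (8.30 to 8.42). Whether the sestrins differ from each other was not tested.

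The remaining arrest targets had smaller differences. Phlda3, which competes with Akt for membrane lipids, was read at 9.67, 9.77 and 9.68 in the null group and at 9.21, 9.63 and 9.46 in the wild-type group. The groups did not overlap, with 9.67 as the lowest null and 9.63 as the highest wild-type signal, and the difference was 0.27 (SE 0.13, limma unadjusted p = 0.0773, adjusted p = 0.524). Zmat3, an RNA-binding p53 target, had 0.16 (SE 0.17), and Trp53inp1, which promotes p53 phosphorylation and autophagy, had -0.05 (SE 0.24).

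**Figure D2:**
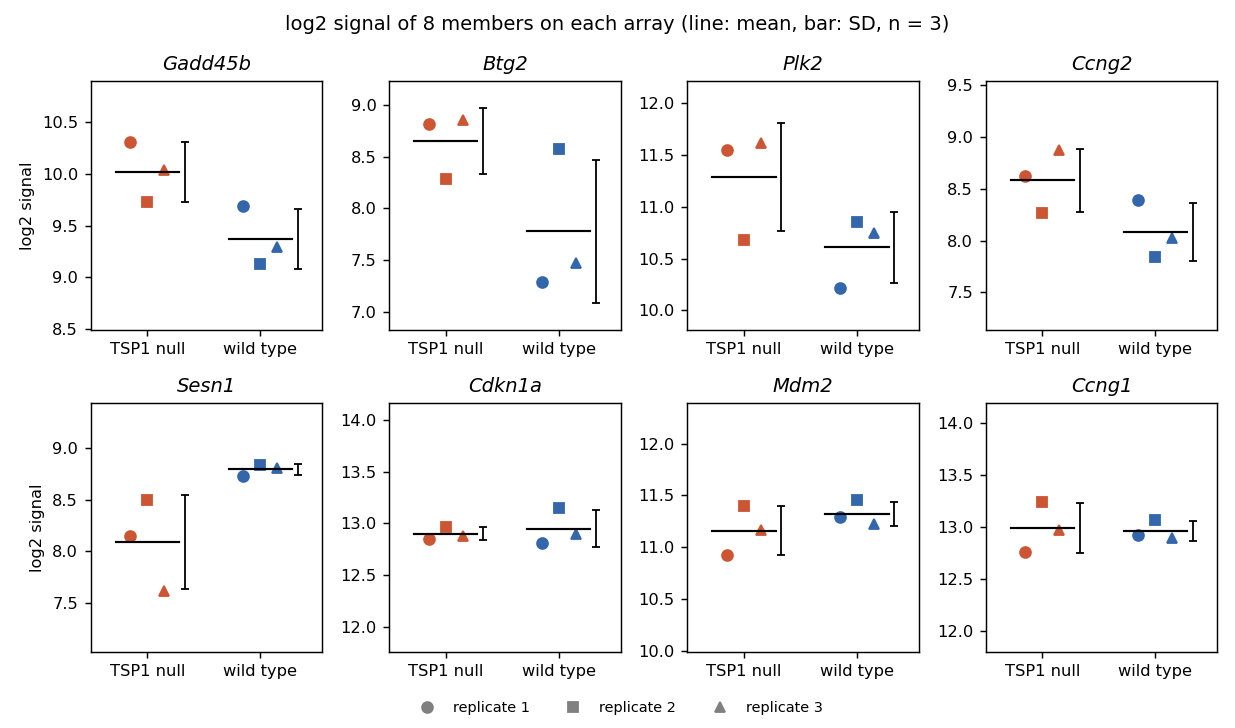
Each panel gives the log2 signal of 1 gene on the 3 TSP1 null and 3 wild-type arrays, with the replicate number as the marker, the group mean as a line and the SD as a bar (n = 3), on y axes of equal span. Gadd45b and Sesn1 separate the groups, whereas for Btg2 the second wild-type array, at 8.57, lies among the null arrays, and Cdkn1a, Mdm2 and Ccng1 overlap throughout.

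For the apoptosis and death receptor targets, 0 of 8 measured genes had an unadjusted p under 0.05, a count near the background of 10.6%. Their differences ran from 0.00 to 0.29, a median of 0.09, though that of Fas was -0.01 after a second quantile normalization. Ei24, an endoplasmic reticulum protein, had the smallest p of them, with 10.35, 10.73 and 10.48 on the null arrays and 10.12, 10.48 and 10.40 on the wild-type arrays. The groups overlapped, and its difference was 0.19 (SE 0.15, limma adjusted p = 0.707). The BH3-only genes Pmaip1 (Noxa) and Bbc3 (Puma), which trigger mitochondrial death, had 0.27 (SE 0.23) and 0.15 (SE 0.14). With 1 array left out these went down to 0.01 for Pmaip1 (without the first wild-type array) and 0.02 for Bbc3 (without the first null array). Bbc3 was the dimmest member, at 5.82 to 6.29, close to the array medians, where real differences are compressed.

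The receptors of this group had differences near 0. Fas, the death receptor for Fas ligand, had signals of 8.96, 10.04 and 9.31 in the null group and 9.21, 9.86 and 9.21 in the wild-type group, a difference of 0.01 (SE 0.30, interval -0.68 to 0.70). It was highest on the second array of each group and varied more within the groups than between them. Tnfrsf10b, the mouse TRAIL receptor, had 0.00 (interval -0.39 to 0.39), and Eda2r, a TNF receptor relative, had 0.04 (interval -0.35 to 0.42). The nuclease gene Aen had 0.02 (interval -0.33 to 0.36). Perp, a desmosomal protein of epithelia that is also a p53 target, was the most variable member, at 7.86, 8.15 and 7.49 in the null group and 6.11, 8.86 and 7.64 in the wild-type group. Its difference of 0.29 (SE 0.60) had an interval of -1.10 to 1.69, which leaves a change of 2-fold in either direction possible, and it was -0.42 without the first wild-type array.

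Gadd45b, of the GADD45 family of small stress proteins that activate p38 and JNK kinases, had the smallest p of all members. It measured 10.31, 9.73 and 10.04 on the null arrays and 9.69, 9.13 and 9.29 on the wild-type arrays. Each null array exceeded each wild-type array, though 9.73 and 9.69 are nearly equal. The difference was 0.65 (SE 0.20, 1.57-fold, limma unadjusted p = 0.0110, adjusted p = 0.352). Its relative Gadd45g had 0.02 (SE 0.14, interval -0.31 to 0.35). The 2 repair members, Rrm2b, the p53-induced subunit of ribonucleotide reductase, and Polk, a translesion DNA polymerase, had -0.18 (SE 0.23) and -0.14 (SE 0.19). Rrm2b was read at 7.40, 8.39 and 7.87 in the null group and at 7.96, 8.22 and 8.03 in the wild-type group, so the null arrays spanned the wild-type ones.

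The calls at an unadjusted p depended on single arrays for 3 of the 5 genes. Gadd45b and Sesn1 were past it in all 6 fits with 1 array left out. Btg2, Plk2 and Ccng2 were not past it without the first null array, the third null array or the third wild-type array, where 2 of 29 members were. Btg2 and Plk2 were also not past it without the first wild-type array, nor Ccng2 without the second. With 1 array left out the differences of Gadd45b ran from 0.51 to 0.81, of Sesn1 from -0.90 to -0.46, of Btg2 from 0.63 to 1.27, of Plk2 from 0.48 to 0.98 and of Ccng2 from 0.36 to 0.66. An ordinary linear model, without limma's sharing of variance across genes, put 0 members and 1904 of all genes under an unadjusted p of 0.05, and called 0 genes after adjustment.

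Within the groups many members shared a pattern over the arrays. The count that follows was chosen after the values were seen. On the second array of each group 16 of 29 members (55.2%) had their highest signal of that group, against 13.7% of all genes. Some other lists shared this: 10 of 27 genes of the other p53 pathway list (37.0%) and 5 of 9 myoepithelial and smooth muscle markers (55.6%) were highest there too, so the pattern is not particular to the members. Others did not: 4 of 23 cyclin, CDK and RB family genes (17.4%), 2 of 17 quiescence and growth arrest genes (11.8%) and 0 of 17 DNA damage genes were highest there. On the first array of each group 1 member, Gadd45b, was highest (8.97% of all genes were), and on the third 0 (9.54%). The 16 were Mdm2, Cdkn1a, Cdkn2a, Cdkn2b, Ccng1, Phlda3, Sesn1, Zmat3, Aen, Perp, Eda2r, Fas, Ei24, Gadd45g, Rrm2b and Polk. By role they were 5 of 8 apoptosis and death receptor targets, 4 of 9 arrest and feedback targets, 2 of 3 INK4 inhibitors, both repair genes, and 1 each of the other 3 roles. Mdm2 lay 0.35 above the mean of the other 2 arrays in the null group and 0.20 above it in the wild-type group. For Fas these distances were 0.91 and 0.65, for Cdkn2b 0.50 and 0.63, for Eda2r 0.43 and 0.27, and for Cdkn1a 0.10 and 0.30. Some were small in 1 group: 0.06 for Sesn1 in the wild-type group, and 0.07 for Aen and 0.09 for Phlda3 in the null group. Another 5 members, Mdm4, Cdkn1b, Cdkn2c, Ccng2 and Gadd45b, were lowest on the second array of each group (17.2%, against 14.2% of all genes). The count of 16 was the same after a second quantile normalization and after centring each array on its median. Arrays of the 2 groups share a replicate number without a label that ties them, and over all genes the deviations of same-numbered arrays correlated at -0.14, 0.18 and -0.16.

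**Figure D3:**
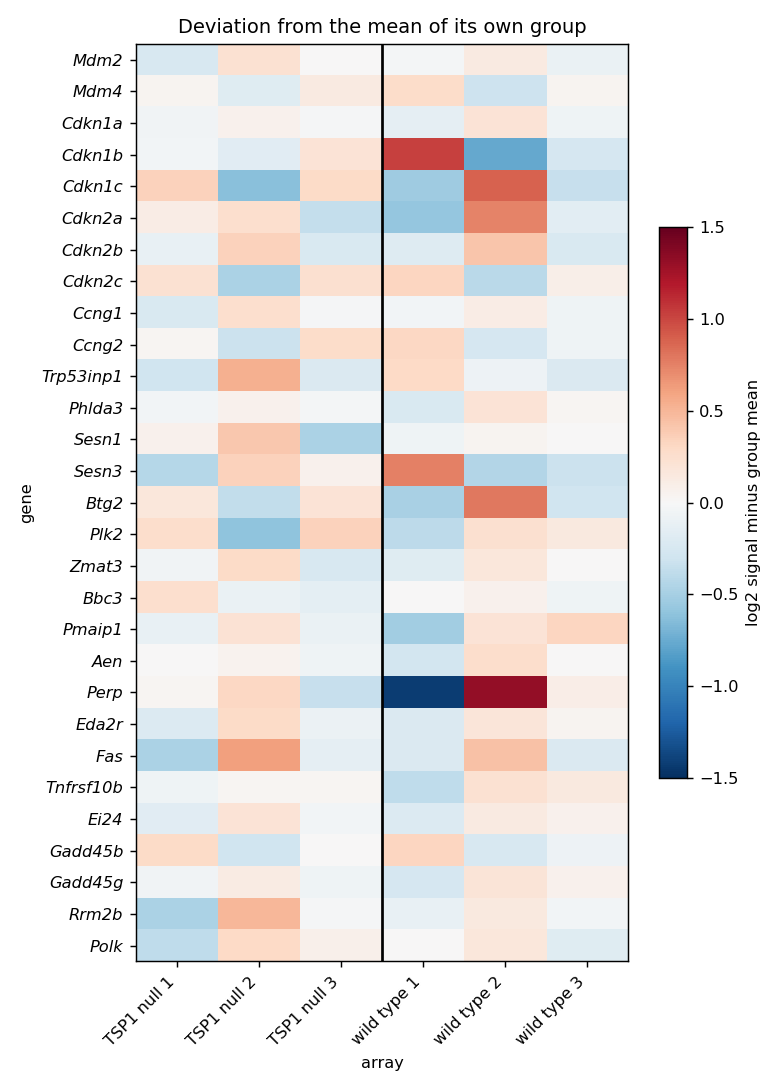
Rows are the 29 measured members, columns the 6 arrays, and colour is the log2 signal minus the mean of the array's own group (red above, blue below). The second column of each group is red for most p53 targets, among them Fas (0.61 and 0.44 above its group means), while Mdm4, Cdkn1b, Cdkn2c, Ccng2 and Gadd45b are blue in both.

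Genes of cell division were low on those 2 arrays. Of 27 proliferation markers 24 were lowest on the second array of each group, against 14.2% of all genes. Around each gene's mean over the 6 arrays the markers averaged 0.04, -0.65 and -0.02 on the null arrays and 0.42, -0.35 and 0.56 on the wild-type arrays. The 29 members averaged 0.01, 0.14 and 0.04 on the null arrays and -0.17, 0.10 and -0.12 on the wild-type arrays. In each group the array with the lowest division signals was the one with the highest member signals. The quiescence and growth arrest genes described below averaged 0.12, 0.12 and 0.14 on the null arrays and 0.08, -0.20 and -0.25 on the wild-type arrays. Their highest array was the second in neither group. The macrophage markers averaged 0.40 above their mean on the second null array, the highest of its group, and 0.90 on the second wild-type array, between the other 2. The fibroblast markers averaged 0.45 there in the null group, again the highest, and -0.53 in the wild-type group, the lowest. The myoepithelial and smooth muscle markers averaged -0.11, 0.35 and -0.02 on the null arrays and -0.09, -0.05 and -0.08 on the wild-type arrays, highest on the second array in each. The part of any of these lists in the member values was not tested.

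Between the groups, the division genes had lower means in the TSP1 null cultures. The proliferation markers had a median difference of -0.29, with 23 of 27 negative (55.1% of all genes were positive), 5 of them at an unadjusted p under 0.05 (18.5%, against 4.27% of all genes lower) and 0 past limma's adjusted threshold. The groups overlapped in the list's mean signal, at 8.09, 7.41 and 8.04 in the null group and 8.48, 7.70 and 8.61 in the wild-type group. Mki67, the standard marker of cycling cells, had 9.79, 9.37 and 9.60 on the null arrays and 11.06, 9.90 and 10.91 on the wild-type arrays, all null arrays below all wild-type arrays, and a difference of -1.03 (SE 0.29, adjusted p = 0.338). The mitotic genes Cenpe and Bub1 had -1.05 (SE 0.33) and -1.05 (SE 0.34). A list of cyclins, CDKs, the RB and E2F families, Cdc25 phosphatases and Skp2 had 23 measured genes. Of these 19 were negative and 4 positive, where 55.1% of all genes were positive, with a median of -0.16 over the list. Only 1 had an unadjusted p under 0.05 (4.35%, against 10.6% of all genes): Skp2, which targets Cdkn1b for degradation, at -0.49 (SE 0.17). Among 17 measured quiescence and growth arrest genes 6 were higher at an unadjusted p under 0.05 (35.3%, against 6.28% of all genes) and 0 lower, with a median of 0.32 and 0 past the adjusted threshold. Those of smallest p were Txnip, an inhibitor of thioredoxin and glucose uptake, at 0.95 (SE 0.17), Btg1, a relative of Btg2, at 0.49 (SE 0.11), and the transcription factor Klf4 at 0.50 (SE 0.13).

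The rest of the p53 pathway was described by a list of its own. Of 32 other listed genes 27 were measured, with a median of 0.07, 1 higher and 2 lower at an unadjusted p under 0.05 (11.1% together, against 10.6% of all genes), and 0 past the adjusted threshold. The 3 were Sesn2, Casp8, the initiator caspase of death receptors, at -0.51 (SE 0.11, adjusted p = 0.29), and Bid, its substrate, at -0.38 (SE 0.16). Casp8 was read at 11.43 to 11.65 on the null and 11.94 to 12.08 on the wild-type arrays. Of 17 measured DNA damage kinases and sensors, 14 were negative and 3 positive, where 55.1% of all genes were positive, with a median of -0.22 over the list. Only 1 had an unadjusted p under 0.05 (5.88%, against 10.6% of all genes): Trp53bp1, a repair factor that binds p53, at 0.48 (SE 0.11, limma adjusted p = 0.29).

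**Figure D4:**
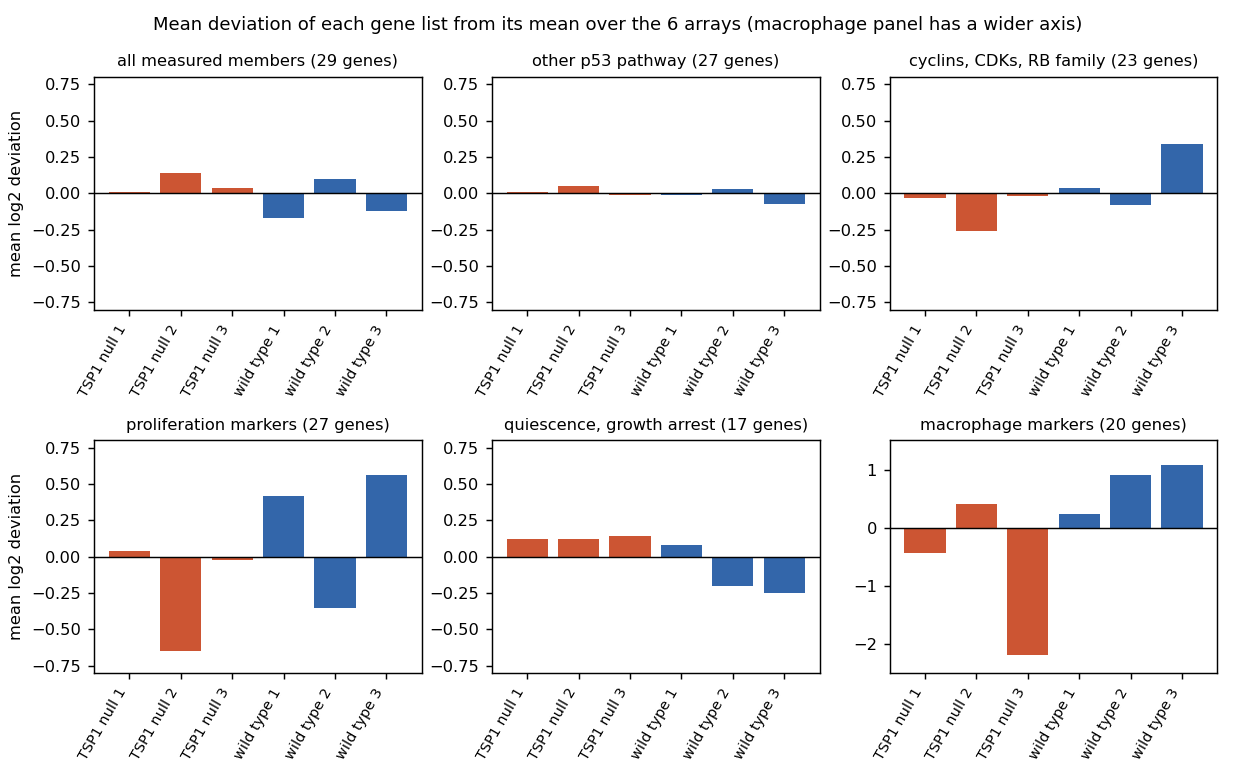
Bars give, for each array, the mean over the genes of a list of the log2 signal minus that gene's mean over the 6 arrays, for the TSP1 null (orange) and wild-type (blue) arrays. The second arrays are the lowest of their group for proliferation markers (-0.65 and -0.35) and the highest for the 29 members (0.14 and 0.10).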

How the data were processed

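Total RNA (150 ng per array) from TSP1 null and wild-type cells, 3 arrays per group, was labelled with biotin, per the labels' protocols. The deposited table holds log2 signals for 41345 probe sets on each array, which the authors had normalized across arrays. Partek and RMA are named in the submitters' processing notes, and no source used here gives versions, settings or a build. RMA compresses differences of dim probe sets.

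The platform's annotation names exactly 1 symbol for 23521 probe sets. The one of highest mean per gene was kept, which gave 22180 genes, and each measured member has 1 such probe set. The groups were compared with limma 3.58.1 in R 4.3.3 (lmFit and eBayes, two-sided, no covariates, Benjamini-Hochberg over all genes, threshold 0.05), and the code was tested on simulated data. The members and lists were chosen with earlier results of these data known, so no list was tested; counts stand beside those of all genes. Every measured member was described, with signals on all arrays for those with an unadjusted p under 0.05, the member of smallest p of each other role, and Mdm2 and Cdkn1a. Ccng1, Fas, Perp, Phlda3 and Sesn2 were singled out after their values were seen, apart from the fixed rule that allowed up to 3 genes per pathway list. Promoter windows are RefSeq's (GRCm38.p6), and the motifs were chosen after the values were seen. The list symbol H2afx was updated to H2ax through the RefSeq table. Figures were drawn with matplotlib 3.10.9 in Python 3.11.15.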

Additional observations from a re-analysis of the deposited data

How the results depend on the processing

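Over 15 alternatives 14 of 29 members kept the direction of their difference, Gadd45b, Btg2, Plk2, Ccng2 and Sesn1 among them, and 0 members passed an adjusted p of 0.05 in any. The number of genes that passed was 34 without the second null array, 1 without the first wild-type array and 0 in the other 4 fits that leave out 1 array. Without the second array of both groups, an alternative added after the data were seen, 2 genes passed, and Btg2 was 1.46 and Plk2 1.10. There 7 members (24.1%, against 11.6% of all genes) had an unadjusted p under 0.05. These were Gadd45b, Btg2, Plk2, Ccng2, Sesn1, Cdkn2a and Cdkn1c, the last at 0.43 against -0.32 on all arrays. Members at an unadjusted p under 0.05 numbered 2 to 6 with 1 array left out (6.70% to 12.3% of all genes) and 0 in the ordinary linear model (8.58% of all genes). With 1 array left out, others came under it: Cdkn1b without the first wild-type array (limma unadjusted p = 0.000815), Cdkn2a and Phlda3 without the second, and Rrm2b without the second null array. With the replicate block they numbered 3 (Gadd45b, Sesn1 and Ccng2; 10.3%, against 9.99% of all genes). In that fit Btg2 and Plk2 had limma unadjusted p of 0.054 and 0.0575. No label says whether the numbers pair the arrays, so it cannot be told whether the block applies. The median difference of the members ran from 0.00 to 0.15 over all alternatives.

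The 15 members that changed sign had differences from -0.32 (Cdkn1c) to 0.29 (Perp) in the fit on all arrays. With array weights Cdkn2c was 0.07, Sesn3 0.06, Aen -0.02, Eda2r -0.04, Fas -0.05, Tnfrsf10b -0.08 and Gadd45g -0.04. Fas was -0.01 after a second quantile normalization and Cdkn2c 0.02 after centring. Without the second array of both groups Cdkn1a was 0.01, Cdkn1c 0.43, Cdkn2c 0.01, Ccng1 -0.04, Eda2r -0.02 and Fas -0.08. With 1 array left out the ranges were -0.24 to 0.05 for Mdm4, -0.13 to 0.05 for Cdkn1a, -0.59 to 0.11 for Cdkn1c, -0.22 to 0.22 for Cdkn2c, -0.10 to 0.14 for Ccng1, -0.31 to 0.11 for Trp53inp1, -0.27 to 0.33 for Sesn3, -0.11 to 0.15 for Aen, -0.42 to 0.96 for Perp, -0.11 to 0.14 for Eda2r, -0.30 to 0.25 for Fas, -0.19 to 0.12 for Tnfrsf10b, -0.11 to 0.11 for Gadd45g, -0.43 to 0.06 for Rrm2b and -0.29 to 0.05 for Polk. The cause was not tested. With 3 arrays per group the median SE of a member's difference was 0.20.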
